A study of Mus musculus with 10 samples.

Results

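The genes described here mark macrophages and their activation states. They comprise 39 genes, divided into 20 lineage genes, 10 genes used as M2 markers and 9 used as M1 markers, out of 18193 genes that had a probe set of their own on the arrays. Members were named one by one as known markers, with no threshold on the signals described here. Each gene was read by 1 probe set annotated to it alone, the one with the highest mean over the 10 arrays. Tumors came from females of the transgenic strain FVB/N-Tg(MMTVneu), called Tg-neu, in which the mouse mammary tumor virus promoter drives the neu oncogene in mammary epithelium, so all tumors of both groups carry this transgene. From the onset of the first palpable tumor, mice were injected intraperitoneally with lovastatin (Lov, 10 mg/kg) or with its ethanol vehicle (Vhcl), 3 times per week for 6 weeks. RNA from whole tumors was hybridized to 1 array each. The 5 tumors of the Vhcl group were A45, A49, A54, A59 and AB11, and those of the Lov group were A19, A48, A50, A55 and AB10.

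Macrophages depend on signals through the receptor for colony-stimulating factor 1 and on the transcription factor PU.1, and they take up debris and antibody-coated particles through scavenger and Fc receptors. The terms M1 and M2 name 2 ends of a range of activation states. M1 genes are those induced by interferon-γ and microbial products, and M2 genes those induced by interleukin-4 or interleukin-13 or found in resident and tumor-associated macrophages. In mammary tumors, macrophages accumulate around vessels and tumor cell nests. The comparison asked whether Lov altered the RNA for this lineage or for either state in the whole tumor.

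No macrophage gene differed between Lov- and Vhcl-treated tumors after adjustment for all probe sets tested. The lowest adjusted p among the 39 genes was 0.928, and over all probe sets it was 0.369 (limma's moderated test, Benjamini-Hochberg). At an unadjusted p under 0.05, 2 of the 39 genes were higher in Lov tumors, the receptor Csf1r and the enzyme Arg1, against 3.50% of all genes tested. By the same rule, 3 were lower, Itgam, Fcgr1 and Clec10a, against 2.75% of all genes. In 0 of the 39 genes did the tumors of the 2 groups form ranges without overlap, while 0.693% of all genes tested did so. No member reached a 2-fold change together with an unadjusted p below 0.02, a rule that 0.423% of all genes met.

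Values are log2 signals by Robust Multi-array Analysis (RMA), on which 1 unit is a 2-fold difference, and differences are Lov minus Vhcl on that scale with the moderated standard error (SE). Signals are given throughout in the tumor order above. Signals of different probe sets do not measure relative abundance of their RNA. Each p-value measures the spread between these tumors, whose labels do not tie each one to a mouse of its own. In whole tumors, a change in macrophage number, in RNA per macrophage or in RNA from other cells cannot be told apart.

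Most lineage genes gave signals clear of the array floor, and most M1 genes did not. The array files hold no detection calls, so the floor was set at the 95th percentile of the mean signal of 43 probe sets for olfactory receptors, genes taken as silent in a mammary tumor. That value was 4.59. A gene was called near the floor when both group means lay at or below it. This applied to 1 of 20 lineage genes (Itgam), to 3 of 10 M2 genes (Cd163, Marco and Il10) and to 5 of 9 M1 genes (Cd80, Il1a, Il6, Il12a and Il12b). With the median signal of all probe sets, 5.02, as the floor, 12 genes were counted, which added Gpnmb, Nos2 and Cd86. Differences for these genes are given as measured signals.

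**Figure D1:**
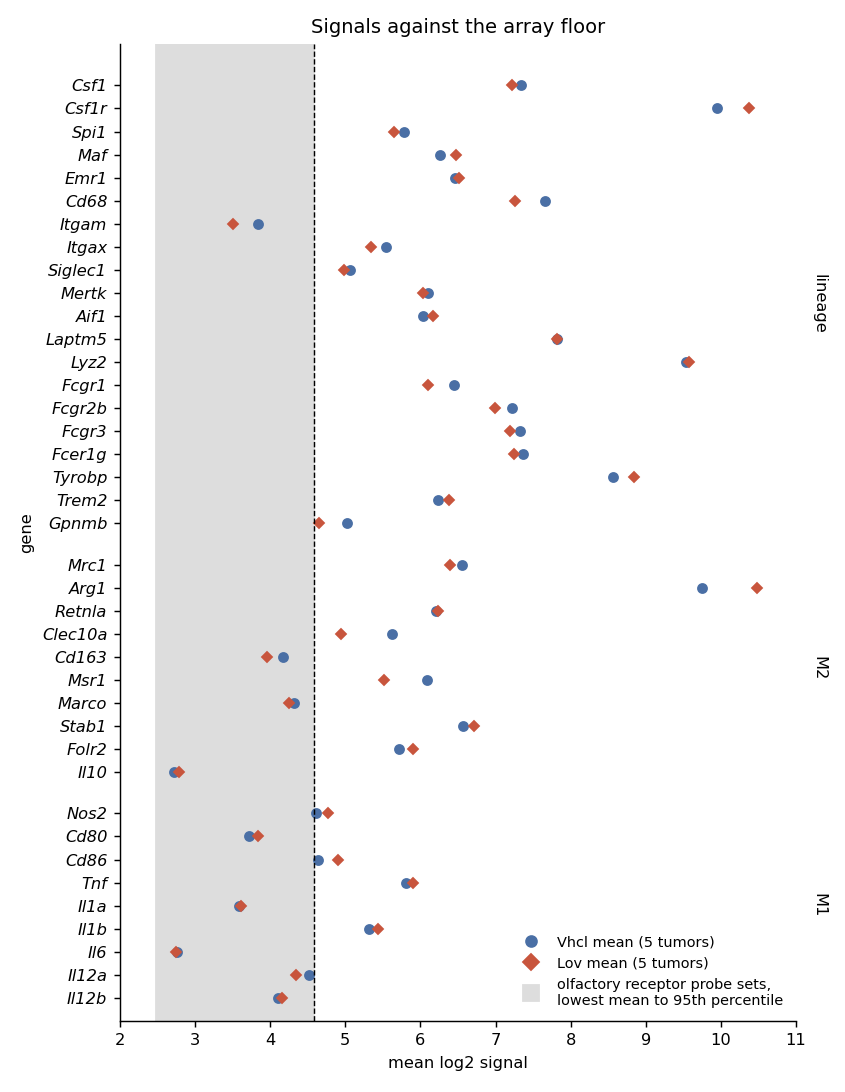
Mean log2 signal of each macrophage gene (x axis) in 5 Vhcl tumors (circles) and 5 Lov tumors (diamonds), by class. The grey band runs from the lowest mean of the olfactory receptor probe sets (2.48) to their 95th percentile (4.59), and 9 of the 39 genes have both means in it.

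PU.1, the product of the member Spi1, binds a purine-rich core, GAGGAA, in the promoters of many myeloid genes. Of the 39 genes, 27 were matched by symbol in the RefSeq promoter table (build GRCm38.p6), and 14 of them (51.9%) had GAGGAA on either strand within 250 bases before the start of transcription. The share was 25.9% among all genes with a promoter there. By class, the share was 7 of 14 lineage genes, 4 of 6 M2 genes and 3 of 7 M1 genes. Among the genes not matched were Spi1 and, of those past the unadjusted threshold, Csf1r, Arg1 and Clec10a. Their promoters were not examined. A match of these letters is a description of the sequence and not a binding site. The promoters of Itgam and Fcgr1, the lineage genes that were lower in Lov tumors by the unadjusted rule, and of Mrc1, which had the most matches among the members, are shown 5′ to 3′ on the gene's strand with each match in capitals (GAGGAA, or TTCCTC where it lies on the opposite strand). In Itgam the matches began 84 and 15 bases before the start, in Fcgr1 55 bases before it, and in Mrc1 180, 167 and 35 bases before it.
Itgam, chr7:128062390-128062639, plus strand: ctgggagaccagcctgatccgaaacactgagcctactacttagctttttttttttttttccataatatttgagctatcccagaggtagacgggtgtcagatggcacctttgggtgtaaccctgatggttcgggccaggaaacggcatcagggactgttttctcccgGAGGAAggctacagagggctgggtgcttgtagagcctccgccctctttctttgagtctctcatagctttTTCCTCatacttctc
Fcgr1, chr3:96293970-96294219, minus strand: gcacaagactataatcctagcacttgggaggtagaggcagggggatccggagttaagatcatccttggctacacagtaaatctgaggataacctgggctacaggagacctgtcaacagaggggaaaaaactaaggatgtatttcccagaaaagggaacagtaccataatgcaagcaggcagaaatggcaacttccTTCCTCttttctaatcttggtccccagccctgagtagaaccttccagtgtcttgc
Mrc1, chr2:14229164-14229413, plus strand: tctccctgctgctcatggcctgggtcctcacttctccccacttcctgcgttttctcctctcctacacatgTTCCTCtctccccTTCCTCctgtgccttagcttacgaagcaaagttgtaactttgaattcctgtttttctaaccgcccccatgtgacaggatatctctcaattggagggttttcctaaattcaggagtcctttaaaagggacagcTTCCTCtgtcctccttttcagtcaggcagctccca

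The growth factor axis gave opposite signs for the receptor and its ligand. Csf1r, the receptor tyrosine kinase required for macrophage survival, had log2 signals of 9.84, 10.12, 9.95, 9.83 and 10.03 in the Vhcl tumors and of 10.70, 10.57, 9.90, 10.55 and 10.18 in the Lov tumors. Of the 5 Lov tumors, 4 lay above the highest Vhcl tumor and A50 lay inside the Vhcl range. The difference was 0.43 (SE 0.15, 95% interval 0.10 to 0.75), or 1.34-fold higher in Lov (exact permutation test, 2-sided, p = 0.0397, n = 5 per group; adjusted p = 0.928). The other 2 probe sets of Csf1r differed by 0.24 (exact permutation p = 0.183) and 0.14 (exact permutation p = 0.278), so the size of the difference depended on the probe set.

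Csf1, the main ligand of this receptor, had log2 signals of 7.27, 7.18, 7.22, 7.33 and 7.70 in Vhcl tumors and of 7.28, 7.19, 6.88, 7.0 and 7.76 in Lov tumors. The 2 groups overlapped, with AB11 and AB10 high in their groups, and the difference was -0.12 (SE 0.16, exact permutation p = 0.54). The other 3 probe sets of Csf1 gave larger differences of -0.29, -0.38 and -0.30 (exact permutation p = 0.0238, 0.0476 and 0.0714). With the mean of its 4 probe sets, a choice not used for the counts above, Csf1 differed by -0.27 and passed the unadjusted threshold. The opposite signs in Csf1r and Csf1 were not tested against each other. Spi1 differed by -0.13 (SE 0.13), and Maf, a transcription factor of mature macrophages, by 0.21 (SE 0.23). The other probe sets of Maf differed by -0.02 to 0.25, the last of these near the floor.

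The plot of all members by tumor sets the spread within each group beside the differences between them. Over the 20 lineage genes, the median SD within groups, pooled over both, was 0.34 log2 units, and the median size of the difference between group means was 0.14. The pooled SD was larger than the difference for 17 of these 20 genes, all but Csf1r, Itgam and Fcgr1, and for 33 of the 39 members. The spread was larger among Lov tumors (SD) than among Vhcl tumors for 13 of the 20 lineage genes.

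**Figure D2:**
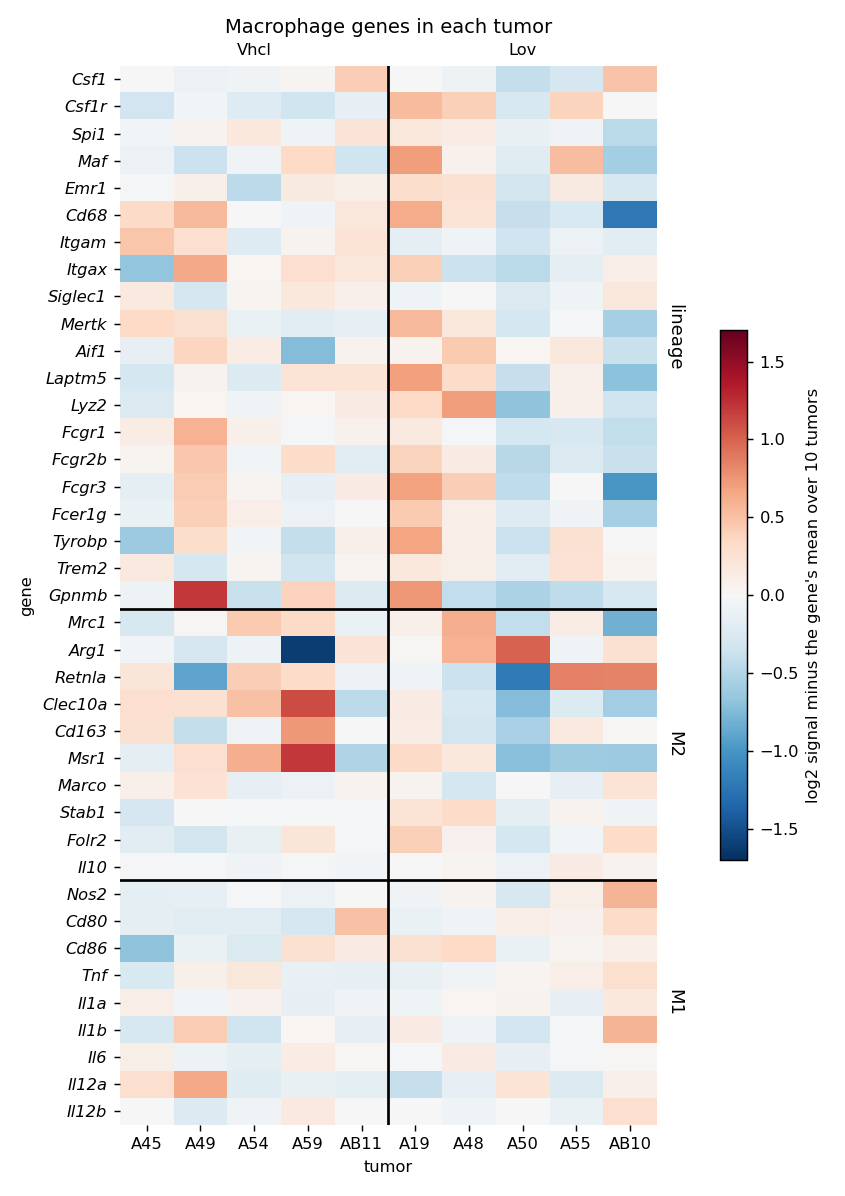
Log2 signal of each macrophage gene (rows) in each tumor (columns) minus the gene's mean over the 10 tumors, with black lines between groups and classes. The Lov tumors A50 and AB10 are low and A19 is high for most lineage genes.

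Of the surface and cytoplasmic markers, Cd68 and Lyz2 spread widely over the Lov group. Emr1 (Adgre1), an adhesion receptor used as a classic marker of mouse macrophages, had log2 signals of 6.47, 6.58, 6.04, 6.64 and 6.59 in Vhcl tumors and of 6.79, 6.75, 6.17, 6.64 and 6.21 in Lov tumors. The groups overlapped, and the difference was 0.05 (SE 0.16, 95% interval -0.30 to 0.40). Cd68, an endosomal glycoprotein, had log2 signals of 7.78, 8.01, 7.45, 7.38 and 7.64 in Vhcl tumors and of 8.09, 7.69, 7.06, 7.20 and 6.24 in Lov tumors. The highest and the lowest value of Cd68 both came from Lov tumors, A19 and AB10. The difference was -0.40 (SE 0.29, exact permutation p = 0.286), and without Lov A19 it was -0.60 and passed the unadjusted threshold.

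Lyz2 encodes lysozyme, a secreted antibacterial enzyme of macrophages and neutrophils. Its log2 signals were 9.31, 9.58, 9.49, 9.59 and 9.69 in Vhcl tumors and 9.89, 10.26, 8.87, 9.64 and 9.21 in Lov tumors, a difference of 0.04 (SE 0.22). All Vhcl values lay between the 2 lowest and the 2 highest Lov values. Itgax, the integrin CD11c of macrophages and dendritic cells, had log2 signals of 4.77, 6.08, 5.47, 5.73 and 5.64 in Vhcl tumors and of 5.84, 5.07, 4.98, 5.27 and 5.56 in Lov tumors. Every Lov value of Itgax lay within the Vhcl range, and the difference was -0.19 (SE 0.23).

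Itgam, the integrin CD11b of macrophages, monocytes and neutrophils, had log2 signals of 4.15, 3.96, 3.46, 3.74 and 3.91 in Vhcl tumors and of 3.52, 3.61, 3.33, 3.57 and 3.50 in Lov tumors. All Lov tumors lay below 4 of the 5 Vhcl tumors, and the Vhcl tumor A54 lay inside the Lov range. The difference was -0.34 (SE 0.13, 95% interval -0.61 to -0.06; exact permutation p = 0.0397; adjusted p = 0.928). All 10 values were below the array floor of 4.59. The unadjusted threshold was missed without Vhcl A45 (-0.26) or without Lov A50 (-0.29). Of 6 neutrophil markers, which share CD11b, 5 were near the floor as well. Of these 6, S100a9, a calcium-binding protein near the floor, was lower in Lov by the same rule (-0.33, exact permutation p = 0.0397). By that rule 2.75% of all genes were lower. S100a8, the marker not called near the floor, had a mean of 4.82 in Vhcl and of 4.12, below the floor, in Lov. It differed by -0.70 (SE 0.34) and did not pass. Of the 6 differences, 4 were negative and 2 positive. The mean neutrophil level, relative to the mean of all tumors, ranged from -0.11 to 0.20 in Vhcl and from -0.28 to 0.08 in Lov, and its part in the difference of Itgam was not tested.

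The other surface and cytoplasmic genes did not pass the unadjusted threshold. Siglec1, a sialic acid-binding receptor, differed by -0.08, and Mertk, the receptor kinase for apoptotic cells, by -0.07. Aif1, which encodes the actin-binding protein IBA1, differed by 0.13. Laptm5, a lysosomal membrane protein of leukocytes, differed by 0.00 (SE 0.24) and ranged over 1.39 log2 units among the tumors.

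Among Fc receptors, the high-affinity receptor Fcgr1 was lower in Lov tumors by the unadjusted rule. Its log2 signals were 6.40, 6.87, 6.36, 6.24 and 6.35 in Vhcl tumors and 6.44, 6.25, 5.98, 6.0 and 5.85 in Lov tumors. Of the Lov tumors, 3 (A50, A55 and AB10) lay below the lowest Vhcl tumor, and A19 and A48 lay inside the Vhcl range. The difference was -0.34 (SE 0.15, exact permutation p = 0.0714, adjusted p = 0.932), or 1.27-fold lower. A second probe set of Fcgr1 differed by -0.24 (exact permutation p = 0.0317). The first probe set missed the unadjusted threshold without Vhcl A45 (-0.35) or A49 (-0.23) and without Lov A50 (-0.31), A55 (-0.31) or AB10 (-0.28).

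The remaining members of this group did not pass the unadjusted threshold. The inhibitory receptor Fcgr2b differed by -0.23 (SE 0.18), the activating receptor Fcgr3 by -0.13 (SE 0.27) and the common γ chain Fcer1g by -0.12 (SE 0.17). Other probe sets of Fcgr2b above the floor differed by -0.47, -0.19 and -0.04. Fcgr2b and Fcgr3 are close in sequence, and shared hybridization was not tested. The adaptor Tyrobp (DAP12) differed by 0.27 (SE 0.21).

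Trem2 and Gpnmb mark lipid-associated macrophages. Trem2, a lipid-sensing receptor that signals through the Tyrobp adaptor, had log2 signals of 6.48, 6.01, 6.36, 5.97 and 6.35 in Vhcl tumors and of 6.49, 6.41, 6.12, 6.55 and 6.35 in Lov tumors, which overlapped (difference 0.15, SE 0.13). Gpnmb, a glycoprotein of lysosomes and melanosomes, had log2 signals of 4.75, 6.04, 4.46, 5.23 and 4.60 in Vhcl tumors and of 5.57, 4.42, 4.30, 4.40 and 4.56 in Lov tumors. Its high values came from 1 or 2 tumors in each group (Vhcl A49 and A59, Lov A19), and the difference was -0.37 (SE 0.32).

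The mean of the 20 lineage genes in each tumor, relative to their means over all tumors, placed the extremes of the series in the Lov group. This lineage level was -0.06, 0.23, -0.06, -0.02 and 0.06 in the Vhcl tumors and 0.37, 0.13, -0.33, -0.00 and -0.32 in the Lov tumors. In Lov A19, 17 of the 20 genes were above their mean and 9 had their highest value. In Lov A50, 1 of 20 was above its mean, and in AB10, 8 had their lowest value. The group means of this level were 0.03 ± 0.12 (SD, n = 5) in Vhcl and -0.03 ± 0.30 (SD, n = 5) in Lov. Of the 20 lineage genes, 12 had a negative and 8 a positive difference, with a median of -0.10, beside a median of 0.00 over all 18193 genes tested.

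General leukocyte genes followed a like pattern across tumors. The mean level of 5 pan-leukocyte genes (Ptprc, Cd53, Coro1a, Itgb2 and Cd52) was highest in Vhcl A49 (0.62) and Lov A19 (0.49) and lowest in Lov A50 (-0.37) and AB10 (-0.35), and 0 of the 5 passed the unadjusted threshold. It ranged from -0.30 to 0.62 in Vhcl and from -0.37 to 0.49 in Lov. With signals taken relative to this level, an alternative chosen after the data were seen, Csf1r differed by 0.56 and Arg1 by 0.87. Fcgr1 then differed by -0.20, Itgam by -0.20 and Clec10a by -0.54, and of the 5 genes Arg1 alone passed the unadjusted threshold.

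**Figure D3:**
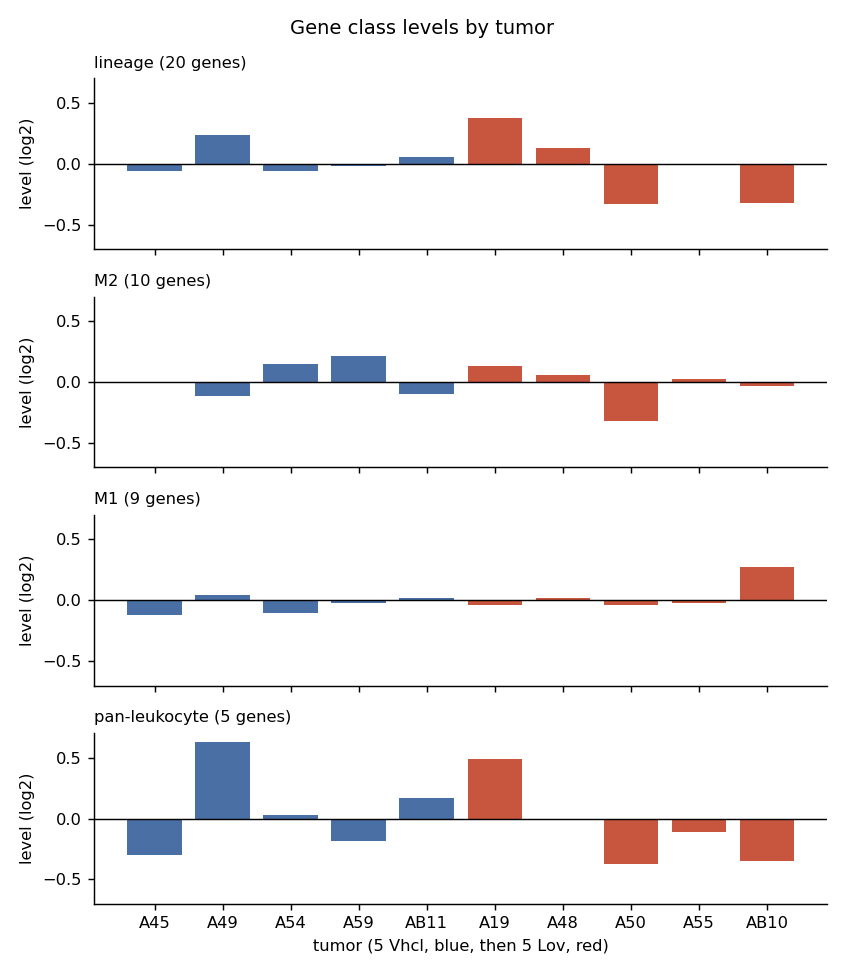
Mean log2 level of the lineage, M2, M1 and pan-leukocyte genes in each tumor (x axis), relative to each gene's mean over the 10 tumors (y axis), for 5 Vhcl tumors (blue) and 5 Lov tumors (red). The lineage level spans -0.33 to 0.37 within the Lov group, and the low tumors A50 and AB10 are low in pan-leukocyte genes too.

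M2 genes had differences of both signs, and the 2 past the unadjusted threshold were opposite in sign. Arg1, the arginase that converts arginine to ornithine, had log2 signals of 10.07, 9.83, 10.03, 8.50 and 10.33 in Vhcl tumors and of 10.13, 10.71, 11.12, 10.06 and 10.38 in Lov tumors. Of the Lov tumors, 3 lay above the highest Vhcl tumor, and the lowest value, in Vhcl A59, stood apart from the other Vhcl tumors. The difference was 0.73 (SE 0.32, 95% interval 0.03 to 1.43), or 1.66-fold higher in Lov (exact permutation p = 0.0476; adjusted p = 0.932). Without A59 it was 0.42 and missed the unadjusted threshold, as it did without Vhcl A49 (0.75) or without Lov A48 (0.67), A50 (0.57) or AB10 (0.75). Arg1 had its highest signal in Lov A50, where the lineage level was lowest.

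Clec10a, a galactose-binding lectin of macrophages and dendritic cells, was lower in Lov tumors by the unadjusted rule. Its log2 signals were 5.57, 5.54, 5.78, 6.39 and 4.84 in Vhcl tumors and 5.42, 5.01, 4.54, 5.05 and 4.69 in Lov tumors. The 5 Lov tumors lay below 4 of the 5 Vhcl tumors, and AB11 was inside the Lov range. The difference was -0.68 (SE 0.25, 95% interval -1.23 to -0.13; exact permutation p = 0.0635; adjusted p = 0.928), or 1.60-fold lower. Without Lov A50 it was -0.58 and missed the unadjusted threshold. Of 4 dendritic cell markers 0 passed that threshold, and their level ranged from -0.09 to 0.05 in Vhcl and from -0.15 to 0.11 in Lov.

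The mannose receptor Mrc1 (CD206) had log2 signals of 6.20, 6.49, 6.92, 6.80 and 6.36 in Vhcl tumors and of 6.56, 7.09, 6.06, 6.60 and 5.66 in Lov tumors. Lov tumors gave both the highest value, in A48, and the lowest, in AB10. The difference was -0.16 (SE 0.24, exact permutation p = 0.587), with a 95% interval of -0.69 to 0.37 that holds both a decrease and an increase. Cd163, the receptor for hemoglobin-haptoglobin complexes, had log2 signals near the floor of 4.33, 3.66, 4.01, 4.81 and 4.07 in Vhcl tumors and of 4.19, 3.76, 3.52, 4.24 and 4.09 in Lov tumors, which overlapped (difference -0.22, SE 0.21). The anti-inflammatory cytokine Il10 gave the flattest signals, between 2.70 and 2.74 in Vhcl tumors and 2.76, 2.80, 2.66, 2.90 and 2.82 in Lov tumors. These lay in the floor range, and their difference was 0.07 (SE 0.08).

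The remaining M2 genes did not pass the unadjusted threshold. The scavenger receptor Msr1 differed by -0.57 (SE 0.32, exact permutation p = 0.159), from 5.29 to 7.01 in Vhcl and from 5.09 to 6.13 in Lov. It passed without Vhcl AB11 (-0.77) or without Lov A19 (-0.72). Its other probe sets above the floor differed by -0.08 and -0.48. The scavenger receptors Marco and Stab1 differed by -0.06 and 0.15, and the folate receptor Folr2 by 0.18. Retnla, a secreted protein induced by interleukin-4, differed by 0.02 (SE 0.38), with its lowest value in Lov A50 (5.02) and its highest in A55 (7.07). Over the 10 M2 genes, 5 differences were negative and 5 positive, with a median of -0.02, and over the 7 clear of the floor the median was 0.02.

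**Figure D4:**
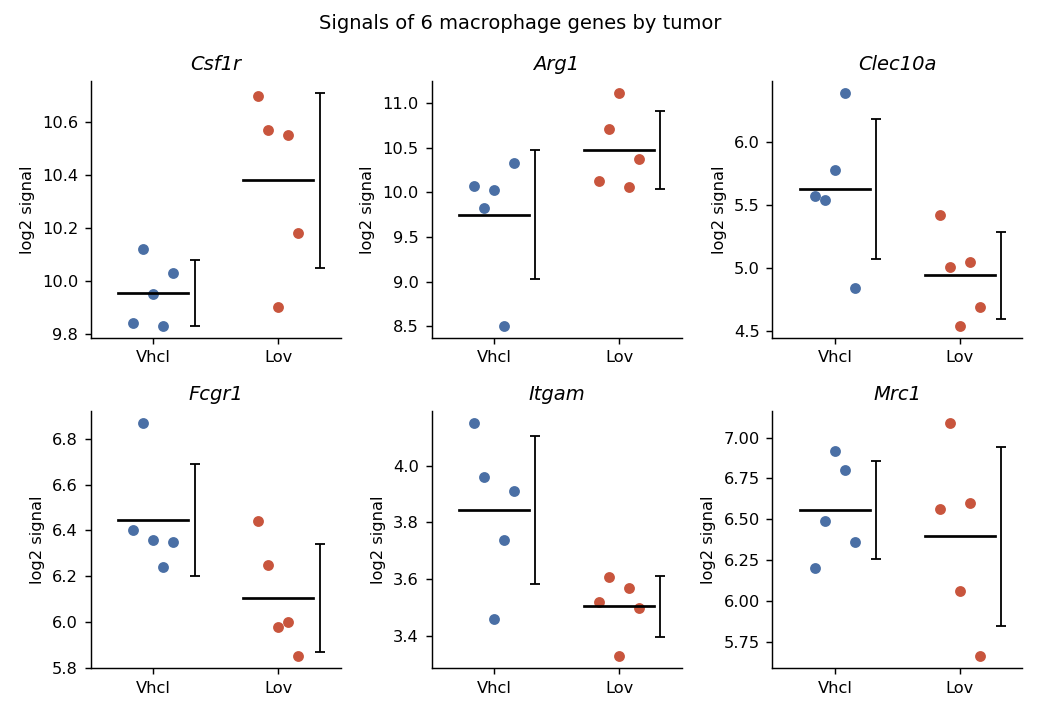
Log2 signals (y axis) of the 5 genes past the unadjusted threshold and of Mrc1 in 5 Vhcl tumors (blue) and 5 Lov tumors (red), with group mean (line) and SD (bar). Each panel has its own scale that does not start at 0, and in every panel the 2 groups overlap.

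The 9 M1 members showed small differences, mostly positive, and their positive median depended on Lov AB10. None of the 9 passed the unadjusted threshold, with 7 positive and 2 negative differences and a median of 0.10. The inducible nitric oxide synthase Nos2 had log2 signals of 4.52, 4.55, 4.66, 4.59 and 4.70 in Vhcl tumors and of 4.63, 4.75, 4.42, 4.78 and 5.27 in Lov tumors. The difference was 0.17 (SE 0.14), with AB10 above all other tumors and the other 4 Lov values between 4.42 and 4.78. The level of the 9 genes in AB10 was 0.27, while the other 9 tumors ranged from -0.12 to 0.04. Without AB10 the median over the 9 genes was -0.01.

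Tumor necrosis factor (Tnf), a cytokine made by activated macrophages of both states, had log2 signals of 5.59, 5.94, 6.05, 5.72 and 5.71 in Vhcl tumors and of 5.73, 5.79, 5.90, 5.96 and 6.13 in Lov tumors. The groups overlapped, with a difference of 0.10 (SE 0.11). Il1b, the secreted interleukin-1β, had log2 signals of 5.10, 5.81, 5.03, 5.40 and 5.24 in Vhcl tumors and of 5.51, 5.30, 5.05, 5.34 and 5.95 in Lov tumors, with a difference of 0.11 (SE 0.18). AB10 again gave the highest Lov value of both cytokines. The costimulatory ligand Cd86 differed by 0.26 (SE 0.17) and its relative Cd80, near the floor, by 0.13 (SE 0.15). Without Vhcl AB11, its highest tumor, Cd80 differed by 0.27 and passed the unadjusted threshold.

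The other M1 cytokines were near the floor in both groups. Il1a, the cell-associated interleukin-1α, had log2 signals of 3.72, 3.55, 3.68, 3.46 and 3.54 in Vhcl tumors and of 3.53, 3.64, 3.66, 3.46 and 3.78 in Lov tumors. Il6 had log2 signals of 2.85, 2.67, 2.60, 2.88 and 2.78 in Vhcl tumors and of 2.74, 2.90, 2.61, 2.74 and 2.77 in Lov tumors. Their differences were 0.02 (SE 0.09) and -0.00 (SE 0.09), with fully overlapping groups. Il12a and Il12b encode the p35 and p40 subunits of interleukin-12. Il12a had log2 signals of 4.70, 5.08, 4.23, 4.30 and 4.28 in Vhcl tumors and of 4.04, 4.29, 4.66, 4.20 and 4.52 in Lov tumors (difference -0.18, SE 0.18). Il12b had log2 signals of 4.12, 3.90, 4.07, 4.29 and 4.12 in Vhcl tumors and of 4.14, 4.06, 4.14, 4.02 and 4.41 in Lov tumors (difference 0.05, SE 0.10). Values this close to the floor leave room for a change in these cytokines that the arrays could not detect.

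**Figure D5:**
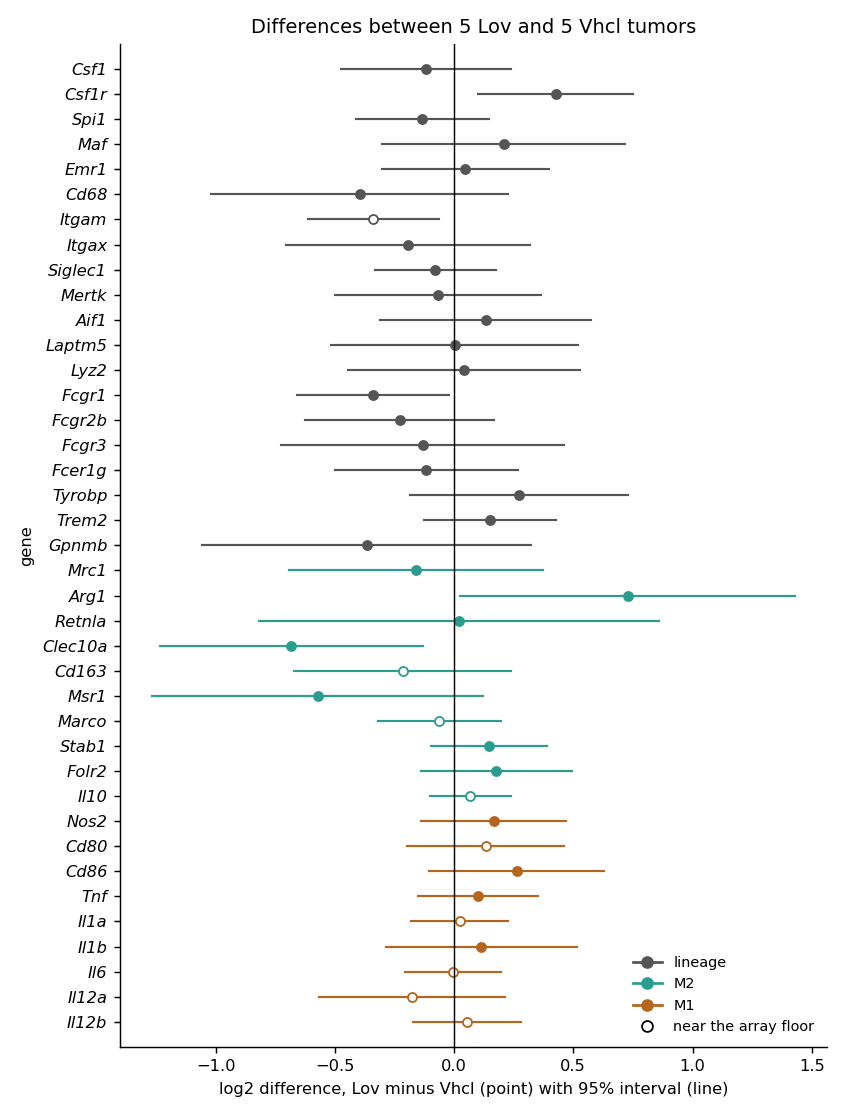
Log2 difference, Lov minus Vhcl (x axis, points), with its 95% interval (lines) for each of the 39 macrophage genes, colored by class, with open points for the 9 genes near the array floor. Of the 39 intervals, 5 exclude 0, those of Csf1r, Itgam, Fcgr1, Arg1 and Clec10a.

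Genes around this set were read by the same unadjusted rule. Of all genes tested, 3.50% were higher and 2.75% lower in Lov by it. Of 15 other macrophage genes, 1 was higher in Lov, the chemokine receptor Cx3cr1 (0.47, SE 0.20, exact permutation p = 0.0873), and 1 was lower, the endotoxin co-receptor Cd14 (-1.38, SE 0.49, exact permutation p = 0.0635). Of 23 signals and factors of macrophage growth and polarization, 1 was lower, placental growth factor Pgf (-1.46, SE 0.43, exact permutation p = 0.0397). Of 7 other M2 genes, among them chitinase-like and chemokine genes, 0 passed in either direction. Near the floor were 3 of these 7 (Chil3, Mgl2 and Pdcd1lg2). Chil3, the chitinase-like gene, had means of 3.09 in Vhcl and 2.94 in Lov, where a change could go undetected. Of 8 other M1 genes, 2 were lower, the chemokine Cxcl10 (-0.60, SE 0.18, exact permutation p = 0.0238) and the signaling inhibitor Socs3 (-1.01, SE 0.45, exact permutation p = 0.103). Of these 8 genes, 4 were near the floor (Ido1, Ptgs2, Il23a and Ccr7). Their differences were negative for 7 and positive for 1, with a median of -0.405. The median of the 9 M1 members was 0.10, of the opposite sign. It was slightly negative without Lov AB10, as given above, and 5 of these 9 genes were near the floor.

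The arrays correlated at 0.969 to 0.990 with each other, and their median signals were 4.97 to 5.02 in Vhcl and 4.99 to 5.05 in Lov. The 3' minus 5' signal of beta-actin, a measure of RNA integrity, was 1.03 ± 0.24 (SD, n = 5) in Vhcl and 0.85 ± 0.20 (SD, n = 5) in Lov. With it as a covariate, Arg1 differed by 0.43 and Clec10a by -0.48, and both missed the unadjusted threshold, while Folr2 (0.35) and Cd86 (0.40) passed it. The level of 3 salivary gland transcripts, relative to the mean of all tumors, was 8.55 in Vhcl AB11, 2.23 in Vhcl A59 and 0.30 in Lov A19, and it was below 0 in the other 7. Skeletal muscle transcripts were high in Vhcl A54 and A59 and Lov A55. Fibroblast markers were lowest in Lov A50 (-1.79), and 5 of 6 mammary epithelial markers had negative differences. Among markers of other cells, Cd3g of T cells (1 of 6, 0.51) was higher in Lov by the unadjusted rule. Prf1 of NK cells (1 of 3, 0.27) was higher too, against 3.50% of all genes tested. Fabp4 of adipocytes (1 of 3, -0.86) was lower, against 2.75% of all genes. The part of these markers in the differences of macrophage genes was not tested.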

How the data were processed

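The authors used affy's RMA to summarize and normalize the arrays, per the submitters' processing notes, and deposited log2 signals for 5 Vhcl and 5 Lov tumors. Arrays have no sequencing depth, so the number of tumors limits the precision. Groups, dose and schedule came from the sample labels. For the control tumors, the treatment field says vehicle control while the free text says untreated, and they were used as Vhcl. The signals were used as deposited. After 64 control probe sets were left out, 45037 were tested in R 4.3.3 by limma version 3.58.1 (a linear model with moderated variance, prior degrees of freedom 3.61, 2-sided, Benjamini-Hochberg adjustment over all). Of these, 34945 carried 1 gene symbol in the platform annotation, 932 several and 9160 none. Exact permutation tests used all 252 assignments of the tumors, with a smallest p of 0.00794. The limma procedure was tested on simulated data. All members and lists were chosen with earlier results of these data known. Signals in every tumor were given for members past the unadjusted threshold of 0.05 and for a fixed set of marker genes, and ranges or differences for the others. Of the listed genes, 9 outside the 39 had no probe set of their own symbol and were not analysed here. The alternatives were a trended, robust prior, array weights, limma's test without moderation of the variance, centering on array medians, quantile normalization on top, a covariate for the prefix of the tumor IDs or the prefix A alone, averaging a gene's probe sets, probe sets not marked as shared, a mean signal above the median, and leaving out each tumor. Chosen after the data were seen were signals relative to 5 pan-leukocyte genes, a covariate for beta-actin signal (3' minus 5'), and a fit without both Vhcl AB11 and Lov A19.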

Additional observations from a re-analysis of the deposited data

Results flagged for a closer look

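In 8 of 78 sets of 5 signals (39 genes in 2 groups), 1 tumor stood apart from the other 4 by Dixon's gap test, where chance alone gives about 1 in 20 sets, or about 3.9. The tumor was high for Csf1 in Vhcl AB11 (7.70), for Fcgr1 in Vhcl A49 (6.87), for Cd80 in Vhcl AB11 (4.28) and for Gpnmb in Lov A19 (5.57). It was low for Emr1 in Vhcl A54 (6.04), for Siglec1 in Vhcl A49 (4.73), for Stab1 in Vhcl A45 (6.36) and for Arg1 in Vhcl A59 (8.50). The last of these lay below 4 Vhcl tumors between 9.83 and 10.33, and Fcgr1 in A49 lay above 4 between 6.24 and 6.40. Both genes passed the unadjusted threshold with these tumors and missed it without them. The sets of Cd80 were near the array floor.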

How the results depend on the processing

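Of 878 recomputed differences of single genes, 779 kept their direction and their side of the unadjusted threshold. Csf1r kept its call in 21 of 23 alternatives, Clec10a in 20 of 23, Itgam in 17 of 22, Arg1 in 16 of 23 and Fcgr1 in 14 of 23, and 0 of these 5 changed direction. The number of lower genes (3) was 1 with the prefix A alone, 5 with the mean of all probe sets, 5 without Lov A19 and Vhcl AB11 (with Fcgr2b at -0.43, Gpnmb at -0.70 and Msr1 at -0.925), and 0 relative to the pan-leukocyte genes; the number of higher genes (2) was 1 without moderation and 1 relative to the pan-leukocyte genes. Leaving out each tumor gave 0 (without Lov A50) to 5 lower and 1 to 3 higher genes, and a median of M1 genes from -0.009 to 0.13; relative to the pan-leukocyte genes that median was 0.24. The medians of lineage and M2 genes stayed within -0.19 to 0.04 and -0.14 to 0.12. Leaving out each tumor turned the sign of genes near 0, with ranges of -0.21 to 0.067 for Mertk, -0.17 to 0.18 for Laptm5, -0.13 to 0.22 for Lyz2, -0.043 to 0.031 for Il6, -0.20 to 0.32 for Retnla, -0.058 to 0.13 for Emr1, -0.035 to 0.24 for Aif1, -0.017 to 0.063 for Il1a, -0.13 to 0.006 for Marco, -0.32 to 0.10 for Fcgr3, -0.24 to 0.011 for Fcer1g, -0.33 to 0.023 for Mrc1, -0.016 to 0.24 for Il1b and -0.01 to 0.10 for Il12b. The sign also turned with the prefix A alone for Fcgr3 (0.12), Mertk (0.025), Spi1 (0.003), Retnla (-0.21), Il12b (-0.005), Il1a (-0.03) and Il1b (-0.035); with array weights for Mertk (0.001) and Retnla (-0.056); with centering for Laptm5 (-0.016); with the mean of all probe sets for Laptm5 (-0.018) and Il12b (-0.055); and with probe sets not marked as shared for Laptm5 (-0.16) and Fcgr2b (0.032). Of the alternatives chosen after the data were seen, leaving out Lov A19 and Vhcl AB11 turned Maf (-0.002), Laptm5 (-0.12) and Il6 (0.005), the actin covariate turned Aif1 (-0.059), Siglec1 (0.004) and Il6 (0.009), and signals relative to the pan-leukocyte genes turned Csf1 (0.02), Spi1 (0.004), Siglec1 (0.06), Mertk (0.072), Fcgr3 (0.006), Fcer1g (0.022), Marco (0.076) and Il6 (0.13). The cause was not tested. No paired analysis was possible because replicate numbers were given in accession order and tie no Lov tumor to a Vhcl tumor.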
